A study of Mus musculus with 20 samples.

Results

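The 9 oncofetal liver genes Afp, Gpc3, Sall4, Lin28b, Igf2bp1, Igf2bp2, Igf2bp3, Hmga1 and Hmga2 were followed in mouse liver tumors and livers. They were chosen by name, with earlier results of these data known, and all 9 were found among the 50559 genes of both count tables. All 9 also passed the filter on low values that left 14333 genes for testing. RNA was sequenced from 20 libraries of C57Bl6J mice without germline mutation, 5 libraries from each of 4 groups. Of these, 3 groups are tumors from hydrodynamic gene transfer, a rapid tail vein injection of plasmids that reaches a part of the hepatocytes. Each of these plasmid mixtures held MYC under the EF1a promoter, which is not restricted to the liver, with a transposase that inserts it into the genome. The first group also received Aldafermin, the second FGF19, and the third a CRISPR guide against Trp53. They are called Aldafermin + MYC, FGF19 + MYC and sgTrp53 + MYC. FGF19 is a human intestinal hormone that limits bile acid synthesis, and Aldafermin is an analog of it that lacks some N-terminal residues and has others substituted. Both hormones were supplied as human sequences, and their own levels were not analysed here. The fourth group is liver, labelled non treated, although the study's methods describe control livers that received a plasmid for a red fluorescent protein. Time after injection is not in the labels. The study describes hormone-driven tumors within a few weeks of injection, and the harvest times of the sequenced samples were not used here. The methods name young adult females, RNA came from individual tumors, and no group with MYC alone was sequenced. For the sgTrp53 + MYC samples the treatment label reads None, so that their group rests on the sample titles.

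Depth ranged from 18004977 to 44427184 gene-assigned reads in Aldafermin + MYC tumors, FGF19 + MYC tumors and livers, and from 54042455 to 66354724 in sgTrp53 + MYC tumors. The sgTrp53 + MYC libraries were deposited in a table of their own. There 11.1% to 14.6% of reads were ambiguous between genes, against 3.03% to 6.30% in the other libraries, so that the tumor type and the table cannot be told apart. Levels are given in CPM, read counts relative to the size of each library after TMM scaling, which makes libraries comparable but not genes of different length. Trp53, the targeted gene, had 18.7, 79.9, 35.4, 51.0 and 48.8 CPM in sgTrp53 + MYC replicates 1 to 5, below every hormone-driven tumor. Its level was 138 ± 32.5 CPM (SD, n = 5) in Aldafermin + MYC and 140 ± 17.9 CPM (SD, n = 5) in FGF19 + MYC tumors. Livers had 32.8 ± 2.98 CPM (SD, n = 5), and Trp53 in sgTrp53 + MYC tumors was not below them (log2 fold change 0.51, SE 0.26, edgeR adjusted p = 0.0831, groups overlapping). The 7 hepatocyte markers summed to 184111 to 228429 CPM in livers and to 3617 to 28069 CPM in tumors, and each of the 7 fell in each tumor group. The 10 proliferation genes rose in all 3 tumor groups, from sums of 54.2 to 81.5 CPM in livers to 1096 to 1840 CPM in tumors. Of 5 germ cell and pluripotency markers none was high enough to be tested, with sums of at most 1.61 CPM in any library.

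Oncofetal genes are transcribed in the fetal liver, silenced around birth and often expressed again in hepatocellular carcinoma. The 9 genes fall into 3 classes. AFP and GPC3 are secreted and cell surface proteins used as serum and tissue markers of liver cancer. SALL4 is a zinc finger transcription factor of stem cells and fetal hepatoblasts. The rest belong to a circuit around the microRNA let-7, in which LIN28B blocks the maturation of let-7, and let-7 in turn represses the mRNAs of the IGF2BP RNA-binding proteins, of the HMGA chromatin proteins and of LIN28B itself.

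Most of these RNAs were rare in livers and far more abundant in tumors. In Aldafermin + MYC tumors 7 of the 9 genes rose against livers (38.4% of all tested genes rose in this comparison) and none fell. In FGF19 + MYC tumors 8 of 9 rose (36.9% of all tested genes), and in sgTrp53 + MYC tumors 8 of 9 rose (36.9% of all tested genes). In sgTrp53 + MYC tumors the call of Igf2bp1 was lost without replicate 4, and Hmga2 was high in replicate 2 only. With only the groups compared in the model, 5 members and 9439 of all genes were called for sgTrp53 + MYC against liver. The gene that did not pass in any of these comparisons was Igf2bp2, and Hmga2 did not pass in Aldafermin + MYC tumors. No overlap with the livers was seen for 7 of the 9 genes in Aldafermin + MYC (58.8% of all tested genes), for 8 in FGF19 + MYC (62.5%) and for 5 in sgTrp53 + MYC tumors (56.2%). Only Igf2bp2 and Hmga1 reached 1 CPM in all 5 livers. The filter used CPM before TMM scaling, on which Igf2bp2 fell short of 1 in liver replicates 4 and 5 (18 of 23501193 and 37 of 39670161 reads). Every member but Hmga1 thus needed the tumors to pass it. Sall4, Lin28b, Igf2bp1, Igf2bp3 and Hmga2 reached 1 CPM in none of the livers. These counts therefore describe the 9 genes and are no independent support. In the order of these groups, the 9 genes had a median log2 change of 8.43, 8.18 and 6.72, beside 0.13, 0.06 and 0.07 over all tested genes. Lin28b and Igf2bp1 had no reads in livers, and with these genes set to their lower bounds the medians were 6.31, 5.66 and 6.43. The 3 comparisons share the same 5 livers and are not independent of each other. In bulk RNA, more cells with a transcript and more transcript per cell cannot be told apart.

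**Figure D1:**
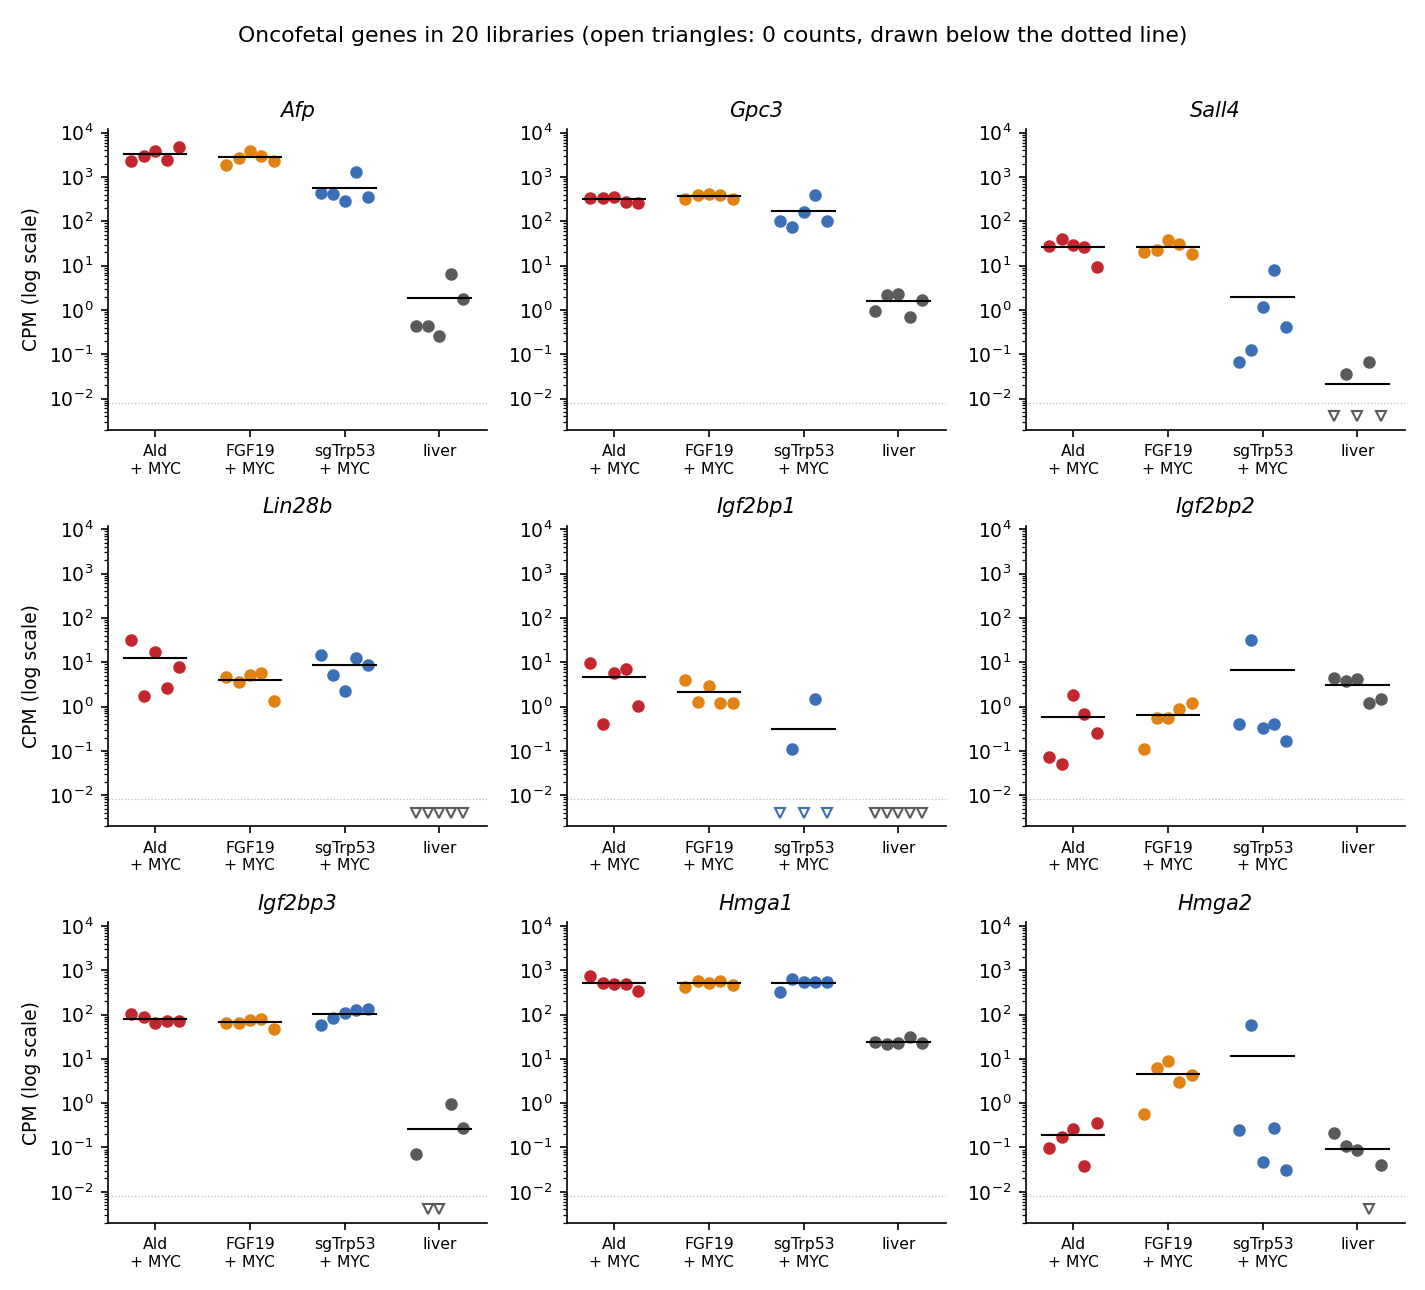
Level of each of the 9 genes in every library (CPM, logarithmic axis), with replicates 1 to 5 from left to right in Aldafermin + MYC (Ald), FGF19 + MYC, sgTrp53 + MYC and liver. Bars are group means, and open triangles are libraries without a read. Afp, Gpc3, Lin28b, Igf2bp3 and Hmga1 sit above every liver in all 15 tumors, whereas Igf2bp2 and Hmga2 each have a single sgTrp53 + MYC library far above the rest of that group.

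Afp lies on chromosome 5 of GRCm39 from 90638584 to 90656766 and encodes alpha-fetoprotein, the main serum carrier of the fetus and the fetal relative of albumin. In livers it had 0.430, 0.440, 0.265, 6.35 and 1.79 CPM in replicates 1 to 5. In Aldafermin + MYC tumors it had 2306, 3051, 3817, 2484 and 4816 CPM, and in FGF19 + MYC tumors 1840, 2754, 3966, 3052 and 2258 CPM. The 2 hormone groups overlapped almost fully, and their lowest tumor was above every other sample of the study. Levels in sgTrp53 + MYC tumors were 445, 413, 295, 1267 and 355 CPM, so that replicate 4 stood apart from its group. The log2 fold change against livers was 10.83 (SE 0.91, edgeR adjusted p = 3.45e-09) in Aldafermin + MYC, 10.58 (SE 0.90, adjusted p = 4.15e-09) in FGF19 + MYC and 8.26 (SE 0.83, adjusted p = 3.91e-08) in sgTrp53 + MYC tumors. The size of these changes leans on the livers, since without liver replicate 4 the value for Aldafermin + MYC was 12.09.

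Alb, the adult counterpart encoded next to Afp, moved the opposite way, together with Afm and Gc, which are further serum carriers of the same gene cluster. All 3 fell in each tumor group, and Alb went from 161516 CPM in livers to 7227, 8098 and 2444 CPM in Aldafermin + MYC, FGF19 + MYC and sgTrp53 + MYC tumors. Of the genes tied to postnatal Afp silencing, the repressors Zhx2 and Zbtb20 fell in each tumor group. Zbtb20 went from 57.1 ± 11.0 CPM (SD, n = 5) in livers to 4.48 ± 2.91 in Aldafermin + MYC, 6.63 ± 2.08 in FGF19 + MYC and 7.54 ± 2.38 in sgTrp53 + MYC tumors (SD, n = 5 each). H19 and Lpl, which are repressed by ZHX2 in adult liver as Afp is, both rose in each tumor group. H19, a noncoding RNA of the fetal liver, was at a mean of 9.88 CPM in livers (0.265 to 39.1 CPM) and at 16489, 16035 and 12067 CPM in the tumors, above Afp itself.

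The 250 bases before the RefSeq start of Afp are shown as the part of its promoter nearest to the start. They lie on the plus strand of the earlier assembly GRCm38.p6 at chr5:90490464-90490713 and are given 5′ to 3′. In capitals are TATAAA, the letters of a TATA box (starting 7 bases before the start), and GTTAAT (starting 105 bases before it), the left part of the palindrome that HNF1 proteins bind. Positions count from the RefSeq start, and whether TATAAA works as a TATA box at this distance was not tested.
Afp: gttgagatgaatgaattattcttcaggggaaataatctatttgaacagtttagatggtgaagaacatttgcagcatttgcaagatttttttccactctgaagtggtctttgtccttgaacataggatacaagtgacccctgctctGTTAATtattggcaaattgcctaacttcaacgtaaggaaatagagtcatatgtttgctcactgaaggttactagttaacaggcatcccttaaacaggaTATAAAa
Searched on both strands over 300 bases around the start, GTTAAT occurs in 7.1% and TATAAA in 13.6% of 32851 mouse promoters. Among the members with a promoter in the table only Afp holds either. Its GC content of 40% is low, with 10.7% of promoters at or below it. The motif CACGTG, the E-box that MYC with its partner MAX recognizes, is present in 7.15% of promoters and among the members in those of Igf2bp3 and Lin28b. CCAAT, a common promoter element, occurs in 37.4% of promoters and in those of Afp, Gpc3, Igf2bp3 and Lin28b, and the full HNF1 palindrome in 0.00913% and in no member. These are matches of letters, and nothing was measured at these promoters.

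Gpc3 (X:51361303-51703137, minus strand, GRCm39) encodes glypican-3, a heparan sulfate proteoglycan anchored in the plasma membrane. Its levels were 333, 336, 349, 277 and 262 CPM in Aldafermin + MYC and 323, 387, 416, 396 and 314 CPM in FGF19 + MYC tumors, and the groups overlapped. Livers had 0.932, 2.16, 2.34, 0.683 and 1.67 CPM. Gpc3 was at 104, 75.2, 163, 397 and 101 CPM in sgTrp53 + MYC tumors, and replicate 4 alone reached the range of the hormone-driven tumors. Against livers the log2 fold change was 7.61 (SE 0.48, edgeR adjusted p = 7.33e-11) in Aldafermin + MYC, 7.85 (SE 0.49, adjusted p = 5.28e-11) in FGF19 + MYC and 6.72 (SE 0.47, adjusted p = 2.22e-10) in sgTrp53 + MYC tumors. No other glypican rose. Of the other 5, 3 were tested, and Gpc4 fell in each tumor group, from 90.8 CPM in livers to 43.7, 53.1 and 33.7 CPM, while Gpc1 fell in FGF19 + MYC tumors (log2 fold change -2.38, edgeR adjusted p = 0.0267). The enzymes that build or edit heparan sulfate chains were mixed. Of 8 tested, 5 fell in each tumor group, among them Sulf2, which removes sulfate groups from the chains (log2 fold changes -2.43, -2.74 and -3.54 in the order of the groups), and Hs2st1, a sulfotransferase, rose in each (1.42, 1.56 and 1.09). Over all 14333 tested genes 4577, 4709 and 4733 fell.

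Sall4 (2:168590252-168609863, minus strand, GRCm39) separated the hormone-driven from the sgTrp53 + MYC tumors with the smallest p of the 9 genes. The levels in Aldafermin + MYC tumors were 28.3, 39.1, 29.4, 25.8 and 9.20 CPM, and in FGF19 + MYC tumors 19.9, 22.5, 37.4, 31.6 and 18.7 CPM. Those of sgTrp53 + MYC tumors were 0.0659, 0.126, 1.18, 7.94 and 0.414 CPM. In the livers 2 reads were counted on Sall4 in all, in replicates 2 and 4. The ratio of the pooled rates against livers was 1388 (95% interval 384 to 11466) in Aldafermin + MYC, 1359 (376 to 11224) in FGF19 + MYC and 105 (29.0 to 869) in sgTrp53 + MYC tumors, where the intervals cover counting error only. The edgeR adjusted p values were 3.07e-06, 3.15e-06 and 0.000694. The lowest sgTrp53 + MYC tumor had less than the highest liver, so that these groups overlap. Sall1 and Sall2, the other spalt-like factors that were tested, fell in each tumor group. Sall1 went from 98.1 ± 14.5 CPM (SD, n = 5) in livers to 30.3 ± 8.24, 46.4 ± 12.8 and 48.8 ± 17.1 CPM (SD, n = 5 each) in Aldafermin + MYC, FGF19 + MYC and sgTrp53 + MYC tumors. SALL4 silences genes through the NuRD complex, which couples histone deacetylases to a chromatin remodeler. Of its 13 subunit genes 10 rose and 1 fell in each tumor group, where 36.9% to 38.4% of all tested genes rose. Rbbp7 rose most, with log2 fold changes of 2.57, 2.36 and 2.89, and Chd3 fell, with -1.97, -2.08 and -2.23.

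Lin28b (10:45252646-45362557, minus strand, GRCm39) had no read in any liver and was present in all 15 tumors. Aldafermin + MYC tumors had 32.3, 1.76, 17.3, 2.65 and 7.89 CPM, FGF19 + MYC tumors 4.63, 3.64, 5.03, 5.69 and 1.34 CPM, and sgTrp53 + MYC tumors 14.3, 5.15, 2.25, 12.7 and 8.50 CPM. The 3 groups overlap, and the spread was widest among Aldafermin + MYC tumors. With livers set to the limit that a count of 0 allows (3 reads per library, on average 0.156 CPM), the mean level was at least 79.1-fold higher in Aldafermin + MYC, at least 26.0-fold in FGF19 + MYC and at least 54.8-fold in sgTrp53 + MYC tumors (edgeR adjusted p = 3.28e-06, 2.16e-05 and 5.60e-06). This limit covers counting error only. Lin28a, the paralog with the same action on let-7, was too low to be tested in any group, at a mean of at most 0.135 CPM.

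Mature let-7 binds mRNAs through bases 2 to 8 of its 5′ end, the seed, shown here because 7 of the 9 members hold its complement. Of 11 mature let-7 and miR-98 names in RefSeq 10 share the seed GAGGUAG, and mmu-let-7j differs in its last base. The mature sequences are given 5′ to 3′, with the seed in capitals.
mmu-let-7a-5p: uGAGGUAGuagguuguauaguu
mmu-let-7b-5p: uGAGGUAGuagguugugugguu
mmu-let-7g-5p: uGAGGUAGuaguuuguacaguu
mmu-miR-98-5p: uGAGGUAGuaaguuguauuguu
mmu-let-7j: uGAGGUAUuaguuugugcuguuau
The target sites are 27 bases of the mRNA strand in the 3′ untranslated region, with the 7 bases complementary to the seed (CTACCTC) in capitals. For each member with a match the site nearest to the stop codon is given, and for Hmga2 all 4. In order they lie at chr2:168590857-168590883, chr10:45257115-45257141, chr11:95852601-95852627, chr16:21878220-21878246 and chr6:49063718-49063744 on the minus strand, chr17:27782250-27782276 on the plus strand, and for Hmga2 at chr10:120200126-120200152, chr10:120198889-120198915, chr10:120198451-120198477 and chr10:120197593-120197619 on the minus strand of GRCm39.
Sall4: gagggctttaatttatCTACCTCaatt
Lin28b: cacccgggcgggaagtCTACCTCatgc
Igf2bp1: tgctgtgcgaagtaaaCTACCTCaagg
Igf2bp2: aacacacaaataaaagCTACCTCaggt
Igf2bp3: gtgcatttttactcaaCTACCTCaggt
Hmga1: ctcctctgttcacaaaCTACCTCtgga
Hmga2 site 1: cgccgacattcaatttCTACCTCagca
Hmga2 site 2: tccccactcctcaataCTACCTCtgaa
Hmga2 site 3: cctgatttgcaaggaaCTACCTCcaca
Hmga2 site 4: caatcaaaacacactaCTACCTCttaa
Lin28b, Igf2bp1 and Hmga2 have 4 matches each, which 0.0613% of 19576 mouse protein-coding genes reach, and Sall4, Igf2bp2, Igf2bp3 and Hmga1 have 1, where 10.9% of these genes have at least 1. These shares are not adjusted for length. The regions of Lin28b, Igf2bp1 and Hmga2 are 4515, 6337 and 3021 bases long, against a median of 1253. Per kb they hold 0.886, 0.631 and 1.32 matches, against 0.0718 over all these genes. The 3′ untranslated regions of Afp (201 bases) and Gpc3 (359 bases) hold none. A match of letters is not evidence of repression, and let-7 itself was not measured in these mRNA libraries.

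**Figure D2:**
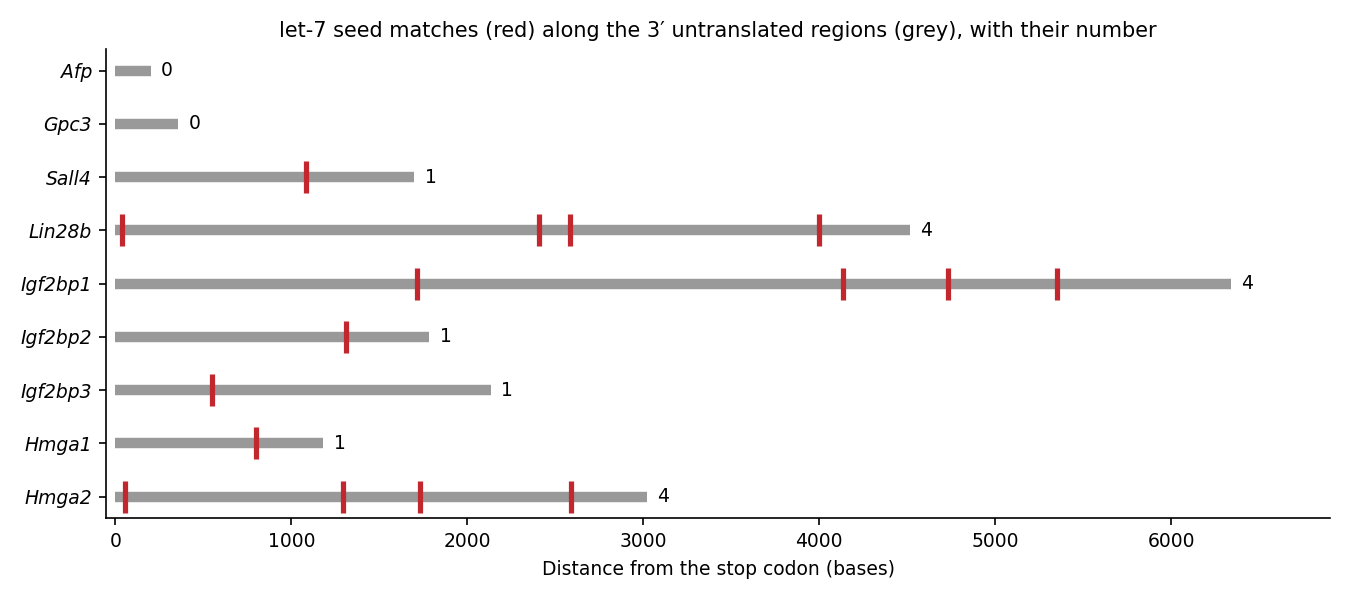
Matches to the let-7 seed (red) along the longest 3′ untranslated region among the CCDS (consensus coding sequence) transcripts of each member (grey, distance from the stop codon in bases). Lin28b, Igf2bp1 and Hmga2 hold 4 matches each in regions of 4515, 6337 and 3021 bases.

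Most genes that make or degrade let-7 rose in tumors, where 36.9% to 38.4% of all tested genes rose. Of 9 tested, 7 rose in Aldafermin + MYC and FGF19 + MYC tumors and 8 in sgTrp53 + MYC tumors, and Tut7, a uridylyl transferase that tags let-7 precursors, fell in each (log2 fold changes -2.03, -1.88 and -1.64). Trim71, itself a let-7 target and an RNA-binding protein of early development, rose from 0.0137 CPM in livers to 10.1 ± 4.80, 14.5 ± 5.86 and 9.43 ± 5.48 CPM (SD, n = 5 each) in Aldafermin + MYC, FGF19 + MYC and sgTrp53 + MYC tumors. Drosha, which cuts primary microRNAs in the nucleus, rose by log2 fold changes of 2.24, 2.35 and 2.47, and Xpo5, which exports the precursors, by 2.04, 2.21 and 2.00. None of the 9 differed between the hormone-driven and the sgTrp53 + MYC tumors.

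The IGF2BP proteins bind and stabilize fetal mRNAs such as that of Igf2, and their 3 genes behaved differently. Igf2bp3 (6:49062144-49192447, minus strand, GRCm39) was the most abundant. It had 100, 86.6, 65.7, 70.4 and 71.1 CPM in Aldafermin + MYC tumors, 64.3, 63.5, 74.1, 81.3 and 47.4 CPM in FGF19 + MYC tumors and 56.9, 83.9, 108, 125 and 131 CPM in sgTrp53 + MYC tumors. Livers had 0.0717, 0, 0, 0.956 and 0.279 CPM. All 15 tumors were far above the livers, and the log2 fold changes were 8.43 (SE 0.60, edgeR adjusted p = 3.25e-10), 8.18 (SE 0.59, adjusted p = 4.39e-10) and 8.79 (SE 0.60, adjusted p = 1.83e-10). The strand setting of the counting is not stated, and 20.7% of Igf2bp3 exon bases are shared with genes on the other strand, mainly Malsu1, which had 17.3 CPM in livers and 24.2 to 32.6 CPM in the tumor groups.

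Igf2bp1 (11:95847989-95896911, minus strand, GRCm39) had no read in any liver. Its levels were 9.55, 0.397, 5.66, 6.96 and 1.04 CPM in Aldafermin + MYC and 3.91, 1.24, 2.92, 1.17 and 1.20 CPM in FGF19 + MYC tumors. Among sgTrp53 + MYC tumors reads were found in replicates 2 and 4, at 0.112 and 1.47 CPM, and the other 3 had none. Against the limit for livers the mean was at least 30.2-fold higher in Aldafermin + MYC (edgeR adjusted p = 0.00104) and at least 13.3-fold higher in FGF19 + MYC tumors (adjusted p = 0.00324). In sgTrp53 + MYC tumors the mean was at least 2.02-fold higher (adjusted p = 0.0447), a call that was kept in 7 of 20 fits with a library left out. It was lost without sgTrp53 + MYC replicate 4 (log2 fold change 3.22, adjusted p = 0.281), any liver, any FGF19 + MYC tumor, or Aldafermin + MYC replicate 3 or 4.

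Igf2bp2 (16:21877759-21982499, minus strand, GRCm39) is the member that adult tissues keep. Livers had 4.38, 3.70, 4.20, 1.23 and 1.47 CPM. Aldafermin + MYC tumors had 0.0729, 0.0496, 1.81, 0.692 and 0.253 CPM and FGF19 + MYC tumors 0.112, 0.546, 0.539, 0.880 and 1.23 CPM, mostly below the livers. In sgTrp53 + MYC tumors 4 libraries were at 0.169 to 0.412 CPM and replicate 2 was at 32.0 CPM, the highest of all 20. With that library in the model Igf2bp2 did not pass the test in any tumor group, with log2 fold changes against livers of -2.38 (SE 1.25, edgeR adjusted p = 0.0968), -2.15 (SE 1.25, adjusted p = 0.132) and 1.15 (SE 1.17, adjusted p = 0.392). Without it Igf2bp2 was lower than in livers in all 3, by log2 fold changes of -2.38 (edgeR adjusted p = 0.00792), -2.15 (adjusted p = 0.0146) and -3.16 (adjusted p = 0.00234).

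Of the mRNAs known to be bound by IGF2BP proteins, 4 of 5 tested rose in each tumor group (36.9% to 38.4% of all tested genes). Igf2, H19 and Actb rose in all 3, Btrc only passed in Aldafermin + MYC and FGF19 + MYC tumors and Cd44 only in sgTrp53 + MYC tumors, and the difference between the groups was not significant for either. Igf2, the fetal growth factor after which the family is named, went from 3.40 CPM in livers to 6083 ± 775 CPM in Aldafermin + MYC, 4942 ± 1432 CPM in FGF19 + MYC and 4384 ± 1958 CPM in sgTrp53 + MYC tumors (SD, n = 5 each).

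Hmga1 (17:27775449-27782648, plus strand, GRCm39) encodes a chromatin protein that binds AT-rich DNA. It was at 24.0, 21.1, 23.1, 30.7 and 22.4 CPM in livers, the only member above 10 CPM there. Tumors had 727, 512, 499, 483 and 346 CPM in Aldafermin + MYC, 408, 558, 505, 574 and 474 CPM in FGF19 + MYC and 327, 628, 539, 548 and 543 CPM in sgTrp53 + MYC. The tumor groups overlapped fully, and the log2 fold changes against livers were 4.40, 4.38 and 4.42 (SE 0.22 each, edgeR adjusted p at most 2.77e-12). Hmga1b, a near-identical gene without introns, was at 52.8, 53.5 and 71.9 CPM in the tumors and 2.53 CPM in livers. Reads can pass between the copies, and 15.5% of Hmga1 exon bases are shared with genes on the other strand, so that its level is uncertain to an extent that was not measured. Of the 7 other genes for high mobility group proteins that were tested, 6, 7 and 7 rose in the 3 groups, led by Hmgb2, from 6.33 CPM in livers to 213, 190 and 228 CPM. Over all tested genes 36.9% to 38.4% rose.

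Hmga2 (10:120197173-120313095, minus strand, GRCm39), the second AT-hook protein and a classical let-7 target, was the member with the most uneven pattern. Livers had 0.215, 0.110, 0.0883, 0 and 0.0398 CPM, 9 reads in all. Aldafermin + MYC tumors stayed near that level, with 0.0972, 0.174, 0.267, 0.0385 and 0.365 CPM. FGF19 + MYC tumors had 0.558, 6.12, 8.80, 3.05 and 4.36 CPM, every one of them above every Aldafermin + MYC tumor and every liver. In sgTrp53 + MYC tumors replicate 2 had 56.7 CPM, and the other 4 had 0.0307 to 0.272 CPM. Hmga2 passed the filter on low values only through 4 FGF19 + MYC tumors and that library. Against livers the log2 fold change was 5.66 (SE 1.80, edgeR adjusted p = 0.00904) in FGF19 + MYC, 1.09 (SE 1.93, adjusted p = 0.624) in Aldafermin + MYC and 6.98 (SE 1.85, adjusted p = 0.00242) in sgTrp53 + MYC tumors. With no filter and without sgTrp53 + MYC replicate 2 the value was 5.81 (edgeR adjusted p = 3.21e-06) in FGF19 + MYC and 1.01 (adjusted p = 0.374) in sgTrp53 + MYC tumors.

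The library sgTrp53 + MYC replicate 2 also had the highest level of all 5 of 5 bile duct (cholangiocyte) markers among the 20 libraries. Krt19 was at 191 CPM there and at most 2.87 CPM elsewhere, and Krt7 was at 80.9 CPM there and at most 2.22 CPM elsewhere. The sum over the 5 markers was 779 CPM in this library, 3.44 to 41.2 CPM in the other sgTrp53 + MYC tumors, 1.81 to 68.5 CPM in Aldafermin + MYC tumors, 2.12 to 87.6 CPM in FGF19 + MYC tumors and 44.3 to 124 CPM in livers. By its pattern over the 20 libraries Igf2bp2 was most like Epcam, one of these markers, with a root mean square difference of 0.68 on the centred log2 scale, followed by Thsd4 at 0.86. The part of bile duct cells in the Igf2bp2 and Hmga2 values was not tested.

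**Figure D3:**
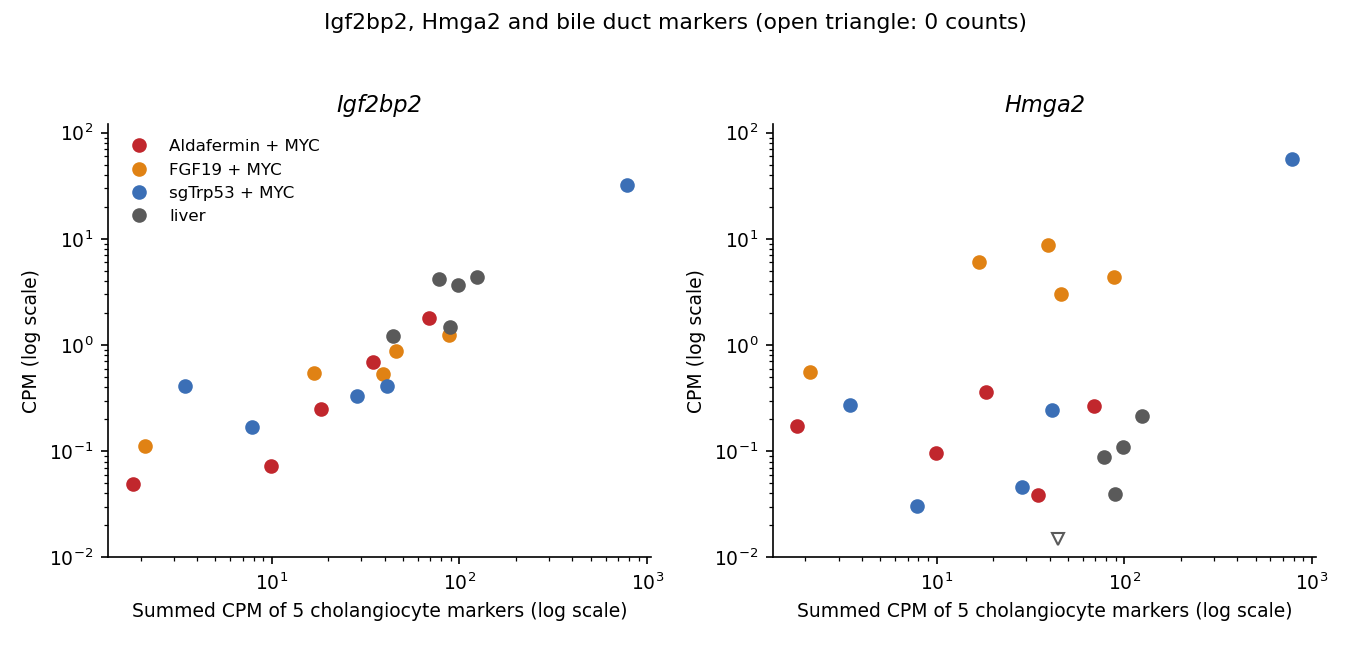
Level of Igf2bp2 (left) and Hmga2 (right) in each library against the summed level of 5 bile duct markers (CPM, both axes logarithmic), with an open triangle for a library without a read. The sgTrp53 + MYC library at a sum of 779 CPM is the highest in both panels, and the FGF19 + MYC tumors stand above the other libraries of similar sums for Hmga2 only.

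Between Aldafermin + MYC and FGF19 + MYC tumors, the comparison of the analog with the parent hormone, none of the 9 genes passed the threshold, as none of the 14333 genes did (0%; 7.31% of all genes and 2 of the 9, Lin28b and Hmga2, had an unadjusted p under 0.05). The methods name a plasmid amount for FGF19 and none for Aldafermin, so that equal doses are not shown, and the level of each hormone was not compared. The narrowest interval was that of Hmga1, with a log2 fold change of 0.03 (95% interval -0.37 to 0.43). For Gpc3 the value was -0.24 (-0.99 to 0.51), for Igf2bp3 0.25 (-0.57 to 1.07) and for Afp 0.25 (-1.0 to 1.5). The intervals were wider for Sall4 at 0.02 (-1.58 to 1.62), Igf2bp1 at 1.19 (-1.29 to 3.67) and Igf2bp2 at -0.23 (-2.83 to 2.37), so that several-fold differences in these genes lie within the error. Lin28b had an interval that left out 0, with 1.61 (0.11 to 3.10; edgeR unadjusted p = 0.0367, adjusted p = 0.637), although the groups overlapped and 3 of 5 Aldafermin + MYC tumors were above every FGF19 + MYC tumor. Without Aldafermin + MYC replicate 1 the value was 0.87. Hmga2 differed by -4.56 (-7.85 to -1.27; edgeR unadjusted p = 0.0091, adjusted p = 0.429) with no overlap between the groups, a separation seen in 1.46% of all tested genes. Hmga2 passed the filter only through FGF19 + MYC tumors, where it was high, and sgTrp53 + MYC replicate 2, so that this share is no support for a difference. With no filter and without sgTrp53 + MYC replicate 2, a setting chosen after the data were seen, Hmga2 passed the threshold (log2 fold change -4.55, SE 0.72, edgeR adjusted p = 0.0208). The likelihood ratio test of edgeR and the Wald test of DESeq2 called 59 and 96 of all genes and none of the 9.

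Compared with sgTrp53 + MYC tumors, the 2 hormone groups, averaged, had more Afp, Gpc3 and Sall4, 3 of 9 genes (11.6% of all tested genes were higher), and less Igf2bp2 and Hmga2, 2 of 9 genes (12.1% were lower). The shares of all genes show how common such calls are in this comparison, which is also one between tables. The log2 fold change was 2.45 for Afp (SE 0.59, edgeR adjusted p = 0.00567), 1.01 for Gpc3 (SE 0.32, adjusted p = 0.0298) and 3.75 for Sall4 (SE 0.82, adjusted p = 0.00297). Afp and Sall4 did not overlap between the tumor types (5.7% of all tested genes did not). Lin28b at -0.27 (95% interval -1.52 to 0.97), Igf2bp3 at -0.49 (-1.18 to 0.21) and Hmga1 at -0.02 (-0.37 to 0.32) did not pass the test, and Igf2bp1 at 3.28 (SE 1.19, edgeR adjusted p = 0.0578) came close to it. Tested for each hormone alone, Afp and Sall4 passed in both. Gpc3 passed for FGF19 + MYC (1.13, edgeR adjusted p = 0.0403) and not for Aldafermin + MYC (0.89, adjusted p = 0.0934), and Hmga2 passed for Aldafermin + MYC (-5.88, adjusted p = 0.0188) and not for FGF19 + MYC (-1.32, adjusted p = 0.535). Igf2bp2 passed for neither (-3.53, edgeR adjusted p = 0.0644, and -3.30, adjusted p = 0.0859), whereas Igf2bp1 passed for Aldafermin + MYC (3.88, adjusted p = 0.0491). Alb was also higher in the hormone-driven tumors, by a log2 fold change of 1.65 (edgeR adjusted p = 0.0143), whereas the other 2 albumin relatives did not pass. Of the 5 macrophage markers 3 were higher in hormone-driven tumors, with sums of 83.0 to 298 CPM in Aldafermin + MYC, 97.1 to 211 CPM in FGF19 + MYC, 55.8 to 103 CPM in sgTrp53 + MYC tumors and 278 to 393 CPM in livers, and the part of these cells in the member values was not tested. Of the 5 bile duct markers 4 were lower, in a comparison that holds the 779 CPM of sgTrp53 + MYC replicate 2. The sums of the other 4 sgTrp53 + MYC tumors, 3.44 to 41.2 CPM, lay within the range of the hormone-driven tumors, 1.81 to 87.6 CPM.

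**Figure D4:**
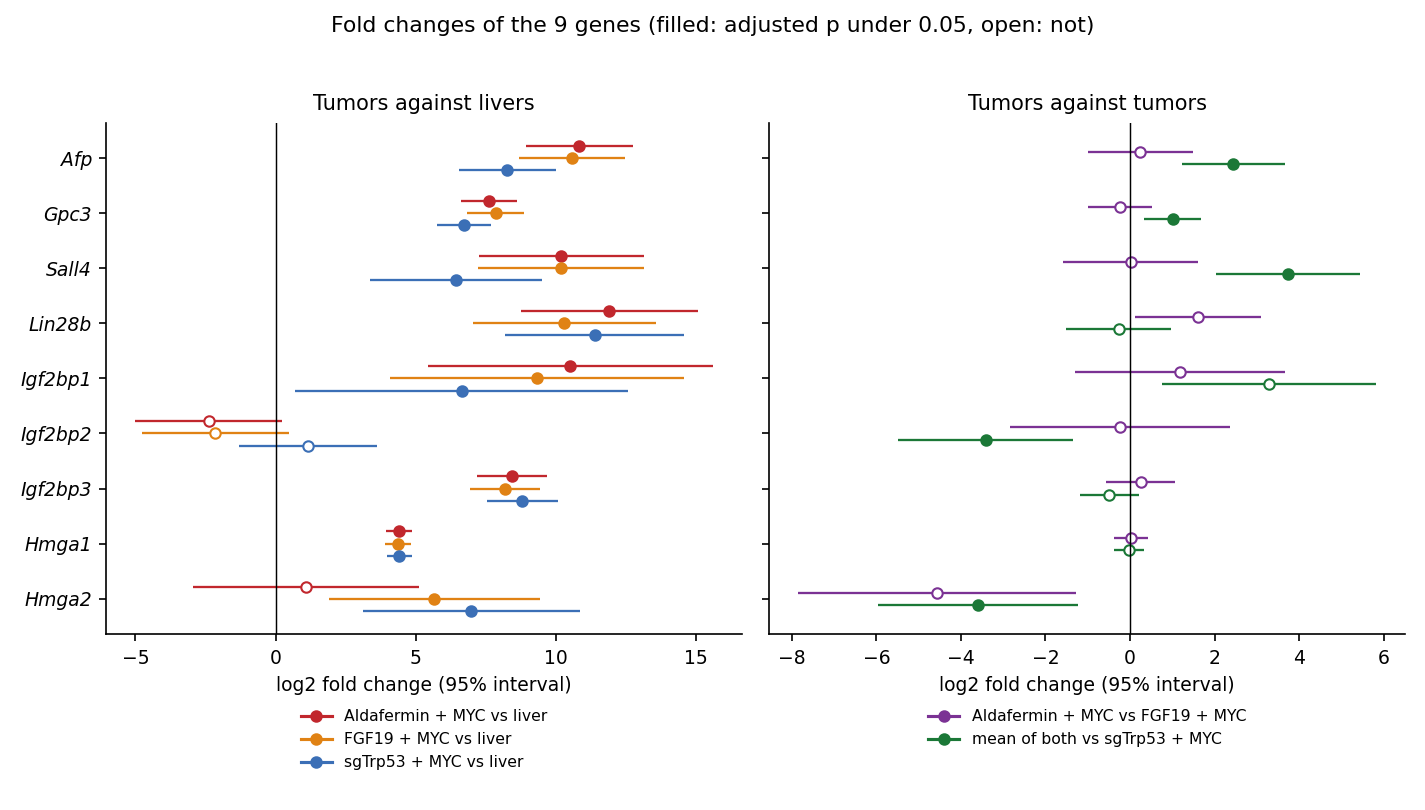
Log2 fold changes of the 9 genes with 95% intervals, for each tumor group against livers (left) and between tumor groups (right), with filled points for an adjusted p under 0.05. Hmga1 lies at 4.38 to 4.42 against livers and near 0 between tumors, whereas Afp and Sall4 lie at 2.45 and 3.75 between hormone-driven and sgTrp53 + MYC tumors. Intervals of Lin28b, Igf2bp1 and Sall4 against livers come from the test of the fitted model, in which livers with almost no reads set no firm scale.

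Single libraries shaped this contrast. Afp, Gpc3, Sall4 and Igf2bp1 each had their highest sgTrp53 + MYC level in replicate 4, whose hepatocyte markers summed to 6141 CPM, the median of its group, and whose bile duct markers summed to 3.44 CPM. Without it the log2 fold change was 3.00 for Afp (edgeR adjusted p = 0.00233), 1.61 for Gpc3 (adjusted p = 0.000264) and 5.83 for Sall4 (adjusted p = 1.14e-05), and Igf2bp1 then passed at 6.63 (adjusted p = 0.00147). Gpc3 fell short of the threshold without sgTrp53 + MYC replicate 1, 2, 3 or 5, with log2 fold changes down to 0.82 and adjusted p up to 0.0884. The calls of Igf2bp2 (-3.42, SE 0.99, edgeR adjusted p = 0.0180) and Hmga2 (-3.60, SE 1.13, adjusted p = 0.0263) rest on replicate 2. Without it the value of Igf2bp2 was 0.90 (edgeR adjusted p = 0.391), and with no filter as well that of Hmga2 was 2.53 (SE 0.69, adjusted p = 0.0208), in the opposite direction. That value holds both hormone groups together, whereas the per-library levels were raised in FGF19 + MYC tumors only, and there mainly in replicates 2 to 5.

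**Figure D5:**
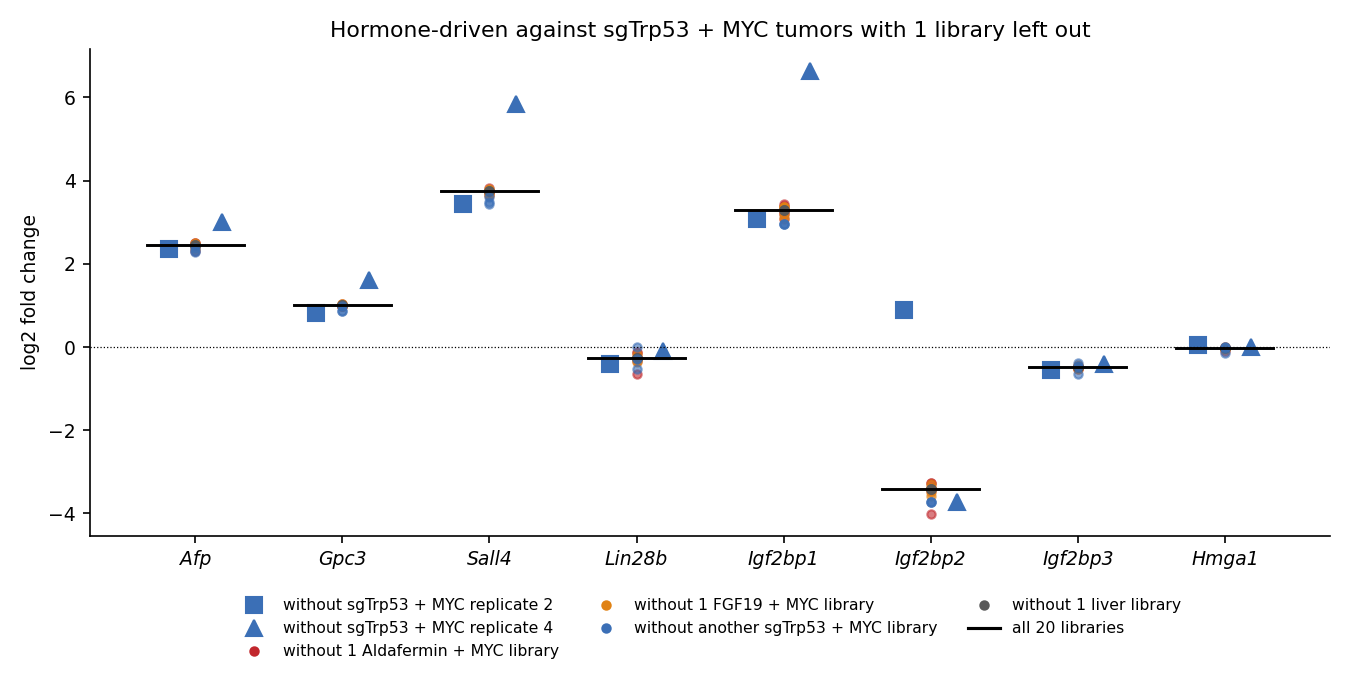
Log2 fold change between the hormone-driven and the sgTrp53 + MYC tumors for 8 members, with all 20 libraries (line) and with 1 library left out (points). Leaving out sgTrp53 + MYC replicate 4 (triangle) raises Sall4 to 5.83 and Igf2bp1 to 6.63, and leaving out replicate 2 (square) turns Igf2bp2 from -3.42 to 0.90; Hmga2 is not drawn, because without replicate 2 it did not pass the filter.

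Among the pathway genes, Arid3a, a DNA-binding protein and let-7 target, was higher in hormone-driven than in sgTrp53 + MYC tumors, by a log2 fold change of 2.57 (SE 0.71, edgeR adjusted p = 0.0135), with 36.3, 18.2 and 4.31 CPM in Aldafermin + MYC, FGF19 + MYC and sgTrp53 + MYC tumors and 1.85 CPM in livers. Of 13 other let-7 targets tested, 2 were higher and 1 was lower in this comparison, beside 11.6% and 12.1% of all tested genes. Set against sgTrp53 + MYC tumors alone, FGF19 + MYC tumors had none of the 13 higher, Arid3a included, and Aldafermin + MYC tumors had 1. Against livers 8, 8 and 7 of them rose and 3, 2 and 2 fell in the 3 groups, where 36.9% to 38.4% of all tested genes rose. Cdc25a, a phosphatase that drives the cell cycle, rose by log2 fold changes of 3.00, 2.82 and 3.05, and Arid3b fell by 1.05, 1.20 and 1.98. Of the heparan sulfate genes 5 of 8 were higher in hormone-driven tumors and none was lower, with Ext1, a chain polymerase, at 37.3 ± 3.70 and 35.1 ± 4.04 against 17.5 ± 3.58 CPM (SD, n = 5 each, log2 fold change 1.05, edgeR adjusted p = 8.92e-06). Of the 13 NuRD genes 2 were higher and 2 were lower, beside the 11.6% and 12.1% of all tested genes.

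Per kilobase of exon, which allows genes to be compared, the order of the members was alike in the 2 hormone groups. In Aldafermin + MYC tumors Afp led with 955 CPM per kb, followed by Hmga1 (111) and Gpc3 (104), which lay within the spread of each other, and then by Igf2bp3 (9.03), Sall4 (4.68), Lin28b (1.29), Igf2bp1 (0.459), Igf2bp2 (0.0717) and Hmga2 (0.0218). In FGF19 + MYC tumors Gpc3 (122 CPM per kb) and Hmga1 (109) changed places and Hmga2 (0.531) stood above Lin28b (0.42). In sgTrp53 + MYC tumors Afp (161 CPM per kb) and Hmga1 (112) were followed by Gpc3 (56.0) and Igf2bp3 (11.6), and Sall4 had fallen to 0.345 CPM per kb. At a level of at least 1 CPM, 6 to 8 members were present in Aldafermin + MYC tumors, 7 to 9 in FGF19 + MYC tumors, 5 to 7 in sgTrp53 + MYC tumors and 2 to 4 in livers. A single tumor, FGF19 + MYC replicate 5, reached that level for all 9.

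By the root mean square difference of centred log2 CPM over the 20 libraries, the genes most like Afp were Bex2 (0.85) and Igf2 (1.08), and those most like Hmga1 were Chaf1a (0.21), a subunit of the replication-coupled histone chaperone, and Hmga1b (0.23). Lin28b was closest to the mitotic genes Depdc1a (0.95) and Cdca5 (0.98), and Gpc3 to Slc7a9 (0.62), a cystine transporter subunit, and Aunip (0.65). For Sall4 the nearest genes were Rtl1 (1.17), an imprinted gene of retrotransposon origin, and Hkdc1 (1.27), for Igf2bp1 Tbx10 (1.14) and Hkdc1 (1.22), and for Igf2bp3 Sapcd2 (0.72) and Asns (0.73), the asparagine synthetase. Hmga2 had no close neighbour, the nearest being Slc4a11 at 1.43 and Akr1c18 at 1.60.

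Whether tumors with more Lin28b had more of its downstream genes was examined over the 10 hormone-driven tumors, for the 3 IGF2BP and 2 HMGA genes, 5 relations in all. Pearson's r with Lin28b on the log2 scale was 0.61 for Igf2bp1 (permutation p = 0.0594, adjusted p = 0.290; Spearman's rho 0.37, permutation p = 0.293) and 0.53 for Igf2bp3 (permutation p = 0.116, adjusted p = 0.290; rho 0.44, p = 0.204). For Hmga1 it was 0.34 (permutation p = 0.330, adjusted p = 0.471; rho 0.25, p = 0.492), for Hmga2 -0.31 (permutation p = 0.377, adjusted p = 0.471; rho -0.18, p = 0.631) and for Igf2bp2 -0.10 (permutation p = 0.786, adjusted p = 0.786; rho -0.04, p = 0.918). None of the 5 passed the threshold, by either measure. After subtraction of the group means r was 0.59 for Igf2bp1, 0.43 for Igf2bp3, 0.37 for Hmga1, 0.04 for Hmga2 and 0.002 for Igf2bp2. Without Aldafermin + MYC replicates 1 and 3, the tumors farthest from the median of Lin28b, r was 0.20 for Igf2bp1 and 0.39 for Igf2bp3. The value for Igf2bp1 thus leans on these tumors, with the highest levels of Lin28b at 32.3 and 17.3 CPM.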

How the data were processed

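RNA from snap-frozen individual tumors and from livers was sequenced as TruSeq Stranded mRNA libraries with paired reads on an Illumina HiSeq sequencer. Per the labels, base calls were converted with bcl2fastq 2.20.0.422 and reads were aligned to mm39 with HISAT2, whose version is not given in the sources used here. The authors used htseq-count with the RefSeq annotation, without stating the strand setting, and deposited raw counts in 2 tables, of which 5 summary lines were removed here. Groups followed the labels, which give 5 mice per condition. Genes reaching 1 CPM in 5 libraries or more entered edgeR 4.0.16 (quasi-likelihood test, TMM, a single model of 4 groups, Benjamini-Hochberg adjustment over all 14333 genes at 0.05) in R 4.3.3, a script tested on simulated data. CPM are TMM-scaled. Standard errors and 95% intervals of log2 fold changes were computed from the fold change and the F statistic of the quasi-likelihood test. They are thus no measure of precision independent of the p value. Lower bounds took 3 counts per library for livers, and 95% intervals of ratios are exact binomial, for counting error only. Correlations were tested with 100000 permutations, two-sided. DESeq2 1.42.0, other scalings and filters, a replicate block and every library left out in turn were tried as alternatives. Gene positions and let-7 sites came from GENCODE M39 (GRCm39), miRNAs and the Afp promoter from RefSeq tables (promoters on GRCm38.p6), in which 7 of the 9 members have a promoter and Sall4 and Igf2bp1 are missing. For let-7 sites each gene was represented by the longest 3′ untranslated region among its transcripts tagged CCDS (consensus coding sequence). Python 3.11.15, numpy 2.4.6 and scipy 1.17.1 were used.

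The text names all 9 members, 2 nearest genes for each by likeness, and from each list up to 4 called genes with the largest changes; Igf2bp client RNAs and bile duct markers were named after their values were seen. Members and lists were chosen with earlier results of these data known. Replicate numbers do not pair mice of different groups: over 30 same-numbered pairs the correlation of deviations ran from -0.333 to 0.333 (median -0.0226). No libraries were copies of each other. Of the other marker lists, endothelial genes fell in 4, 3 and 4 of 5 cases in the 3 tumor groups, macrophage genes in 3, 3 and 4 with 1 that rose, stellate genes in 2 with 1 that rose, erythroid genes in 2, 3 and 3 of 4, and the 1 lymphocyte gene tested did not pass. Over all 14333 tested genes 4577, 4709 and 4733 fell in the 3 tumor groups. Depth alone does not set the precision. The deepest group, sgTrp53 + MYC, had the widest spread of Gpc3, with an SD of 132 CPM against 39.1 in Aldafermin + MYC and 45.7 in FGF19 + MYC tumors (n = 5 each).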

Additional observations from a re-analysis of the deposited data

Results flagged for a closer look

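In 7 of 34 sets of 5 libraries (a member in a group), the highest library lay further from the rest than Dixon's 95% limit for 5 samples allows. That limit assumes normally distributed values, which CPM near 0 are not, and the sets share libraries. The number of flagged sets can thus not be set against a rate expected by chance. In sgTrp53 + MYC replicate 4 this held for Afp at 1267 CPM (the next library had 445), Gpc3 at 397 CPM (next 163), Sall4 at 7.94 CPM (next 1.18) and Igf2bp1 at 1.47 CPM (next 0.112). In sgTrp53 + MYC replicate 2 it held for Igf2bp2 at 32.0 CPM (next 0.412) and Hmga2 at 56.7 CPM (next 0.272). In livers it held for Afp in replicate 4 at 6.35 CPM (next 1.79). That liver also had the highest Igf2bp3 of the livers at 0.956 CPM, the highest Igf2 at 11.2 CPM and the highest Bex2 at 1.43 CPM. Liver replicate 5 came next for Afp, Igf2bp3 (0.279 CPM) and Igf2 (3.23 CPM), but not for Bex2 (0.159 CPM). For Igf2bp2 liver replicates 4 and 5, at 1.23 and 1.47 CPM, were below the other livers. The cause was not tested.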

How the results depend on the processing

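Over 1317 values of single members under other settings, 1244 kept their direction and their side of the threshold, 30 lost and 14 gained a call, and 29 changed sign. With each library left out in turn, members called ranged from 7 to 8 (Aldafermin + MYC against liver), 7 to 8 (FGF19 + MYC), 6 to 8 (sgTrp53 + MYC), 0 to 0 (Aldafermin + MYC against FGF19 + MYC) and 2 to 6 (hormone-driven against sgTrp53 + MYC), and all genes from 9461 to 10386, 9437 to 10273, 9473 to 10207, 0 to 29 and 2497 to 3777. These counts hold rises and falls, among the members that passed the filter in each fit. Without sgTrp53 + MYC replicate 2, the 8 members called for sgTrp53 + MYC against liver included Igf2bp2 as lower (log2 fold change -3.16). They did not include Hmga2, which then failed the filter. With only the groups compared in the model 5 members and 9439 of all genes were called for sgTrp53 + MYC against liver. For hormone-driven against sgTrp53 + MYC tumors 3 members were called with only these groups (2783 of all genes), 3 at a minimum of 10 CPM (2369), 3 with FGF19 + MYC alone (2258) and 3 with no filter and sgTrp53 + MYC replicate 2 left out (3056). That last setting was chosen after seeing the data, and with it 1 member and 6 of all genes differed between the hormones, where RLE size factors called 2 genes, DESeq2 96 and the likelihood ratio test 59.

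With the replicate number as a block, members called were 7, 8, 6, 0 and 4 and all genes 10036, 9942, 9981, 0 and 3120. Of 20 libraries 1 correlated best with its own number, so that the numbers do not pair mice. Under the block the calls of Igf2bp1 (5.68) and Hmga2 (4.51) in sgTrp53 + MYC against liver and of Igf2bp2 (-1.19) and Hmga2 (-0.29) between tumor types were lost, and that of Igf2bp1 (4.39) between tumor types was gained.

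Between tumor types Gpc3 lost its call with no filter (0.89, edgeR adjusted p = 0.0595) and with GC and length offsets (0.86, adjusted p = 0.0957), and Hmga2 with only these groups (adjusted p = 0.0539), while Igf2bp1 gained one in DESeq2 (adjusted p = 0.0424). The log2 fold change of Igf2bp2 for sgTrp53 + MYC against liver turned to -1.07 under the block, -2.87 with no filter and without sgTrp53 + MYC replicate 2, and ran from -3.16 (without that library) to 1.47 with libraries left out. Its value between tumor types ran from -4.00 to 0.90 with libraries left out and was 0.76 in the added setting, where Hmga2 was 2.53. Lin28b between tumor types became 0.10 with GC and length offsets and 0.53 with Aldafermin + MYC alone. Values near 0 between the hormones changed sign: Sall4 was -0.018 (RLE, DESeq2), -0.021 (only these groups) and -0.042 (offsets), from -0.17 to 0.22 with libraries left out; Hmga1 was -0.0053 (RLE, DESeq2), -0.010 and -0.041, from -0.13 to 0.13; Igf2bp2 ran from -1.41 to 0.10. Hmga1 between tumor types ran from -0.15 to 0.054. The correlation with Lin28b became 0.0385 for Hmga2 and 0.00215 for Igf2bp2 with group means subtracted, and -0.33 for Hmga1 and 0.11 for Hmga2 without the 2 farthest tumors. The cause of these changes was not tested. Scaling to library size alone moved the median log2 fold change of all genes against livers from 0.127, 0.0622 and 0.0713 to 0.975, 0.906 and 0.954 and the share of calls that were higher from 54.6%, 52.9% and 52.8% to 78.2%, 77.3% and 77.9%. Levels under 0.156 CPM in livers lie within the limit that a count of 0 allows.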
